A study of Homo sapiens with 2 samples.

Results

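The genes described here mostly encode protein factors that start and extend polypeptide chains on the ribosome, with some enzymes that modify elongation factors. They were taken by name: all GENCODE 44 protein-coding genes whose symbol starts with EIF1 to EIF6 or with EEF1 or EEF2, leaving out the eIF2 kinases, the eIF4E-binding proteins and the eIF4E transporter. The rule gave 62 of 20033 protein-coding genes, and no measured value entered it. NUDT21 occupancy at their promoters was read from CUT&Tag peaks of 2 independent biological replicates of J.gamma1 cells, an established line of T-cell acute lymphoblastic leukemia, derived from Jurkat, that lacks phospholipase C gamma 1. Both replicates formed 1 group from 1 cell line and used the same NUDT21 antibody, so no condition could be compared. NUDT21 is a subunit of cleavage factor Im, which binds UGUA in nascent RNA and guides the choice of polyadenylation site, and the study asked whether it is also found at promoters. In CUT&Tag a transposase tethered by the antibody cuts the DNA around its target, and the released fragments are sequenced.

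Initiation begins when eIF2 brings the initiator tRNA to the small ribosomal subunit, where eIF1, eIF1A and the large eIF3 complex hold it ready to scan. The eIF4 factors recognise the mRNA cap and unwind the leader, eIF5 and eIF5B allow the large subunit to join, and eIF2B recharges eIF2 with GTP. In elongation eEF1A delivers aminoacyl-tRNA, the eEF1B subunits recharge eEF1A, eEF2 moves the ribosome along, and eIF5A relieves stalls. Many mRNAs of the translation apparatus begin with a C followed by a run of pyrimidines, the terminal oligopyrimidine (TOP) motif, through which growth signals control their translation. Leukemic cells are known for a high demand on this machinery, and MYC is a known activator of many of its genes through the E-box CACGTG.

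The start sequences of these genes are shown first, because they are what the peaks were mapped to. A TOP-like start was taken as a C at the annotated canonical start followed by at least 4 pyrimidines, and 21 of the 62 genes (33.9%) had one, against 4.59% of all protein-coding genes. The 7 TOP-like starts below carried peaks of folds from 2.68 to 12.4 and are given as 20 bases before and 20 bases from the start on hg38, with the pyrimidine tract in capitals. They lie at chr19:3985444-3985483 (minus strand, EEF2), chr2:206159875-206159914 (plus, EEF1B2), chr10:119080798-119080837 (minus, EIF3A), chr22:36529147-36529186 (minus, EIF3D), chr16:28403822-28403861 (minus, EIF3CL), chr1:206612446-206612485 (minus, EIF2D) and chrX:24054936-24054975 (plus, EIF2S3).
EEF2: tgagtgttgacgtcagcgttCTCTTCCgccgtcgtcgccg
EEF1B2: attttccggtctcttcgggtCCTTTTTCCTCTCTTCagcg
EIF3A: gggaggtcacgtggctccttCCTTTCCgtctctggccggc
EIF3D: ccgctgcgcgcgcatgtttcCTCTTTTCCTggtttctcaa
EIF3CL: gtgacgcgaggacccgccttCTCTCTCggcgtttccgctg
EIF2D: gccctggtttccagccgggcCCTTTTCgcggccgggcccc
EIF2S3: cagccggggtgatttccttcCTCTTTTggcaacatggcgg

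The next 4 starts have no such tract at the annotated position, although EIF1 and EIF2B4 were among the genes with the highest peaks and EIF2S2 and EIF1B among those whose replicates differed most. They lie at chr17:41688865-41688904 (plus, EIF1), chr2:27370319-27370358 (minus, EIF2B4), chr20:34112224-34112263 (minus, EIF2S2) and chr3:40309687-40309726 (plus, EIF1B). The annotated start is only a proxy of the start the cells used.
EIF1: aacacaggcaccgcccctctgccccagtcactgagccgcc
EIF2B4: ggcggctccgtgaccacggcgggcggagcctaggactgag
EIF2S2: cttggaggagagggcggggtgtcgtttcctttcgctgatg
EIF1B: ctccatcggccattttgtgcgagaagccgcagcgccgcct

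The replicate 1 list held 92722 peaks on chromosomes 1 to 22, X and Y, and the replicate 2 list held 66671. A peak counted for a gene when it reached to within 3000 bp of an annotated start of the gene, measured from the closer edge, and a gene was called when both replicates had such a peak. Peak height was the fold enrichment that the authors' peak caller gave at the summit, and its percentile is the percent of the peaks of the same list with a lower fold. The median fold of the whole list was 3.95 in replicate 1 and 4.23 in replicate 2. At the strongest peak of each called gene, a median of 66.0 fragments was recovered in replicate 1 and 37.0 in replicate 2, and intervals on single folds are exact Poisson 95% intervals on those fragments, which cover counting error only. Promoter peaks were also found in both replicates at 7 of 10 T-cell genes and 6 of 10 genes of other tissues. The shares of all genes with starts of like GC content were 41.9% and 60.8%, and that of all protein-coding genes was 57.0%. With 10 genes per list and peaks in both lists, peak presence did not check the cell type label.

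NUDT21 peaks lay at the promoters of most of these genes. A promoter peak was found in each of the replicates at 53 of the 62, or 85.5% (Wilson 95% interval 74.7 to 92.2), against 57.0% of all protein-coding genes (11425 of 20033). Without the enzymes that modify elongation factors and the readthrough genes, 46 of 54 were called (85.2%). A peak covered the canonical start itself in both replicates at 44 of the 62 genes, or 71.0%, against 33.9% of all genes. Another 4 genes had a promoter peak in replicate 1 only, none had one in replicate 2 only, and 5 had none. Genes are not replicates of a condition, and neighbouring starts can share peaks, so the shares are descriptions and were not tested.

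Peaks occur more often at GC-rich starts, so the share was also read from genes of like GC content within 500 bp of the canonical start. Weighted to the GC deciles of the 62 genes, the share of all genes called was 64.4%, and the share with a peak over the canonical start was 41.8%. Weighting by GC content together with the summed width of the promoter windows gave 64.9% for promoter peaks. Of the 53 factor genes in GC deciles 4 to 10, 50 were called. The share of all genes called was 64.3% in decile 4 and higher in each higher decile. Of the 9 factor genes in deciles 2 and 3, 3 were called, which were EIF2B1, EIF2B3 and EIF3H. These were 1 of 5 genes in decile 2, beside 26.0% of all genes, and 2 of 4 in decile 3, beside 53.4%. In these 2 deciles the factor genes were thus not called more often than all genes, although they were few.

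**Figure D1:**
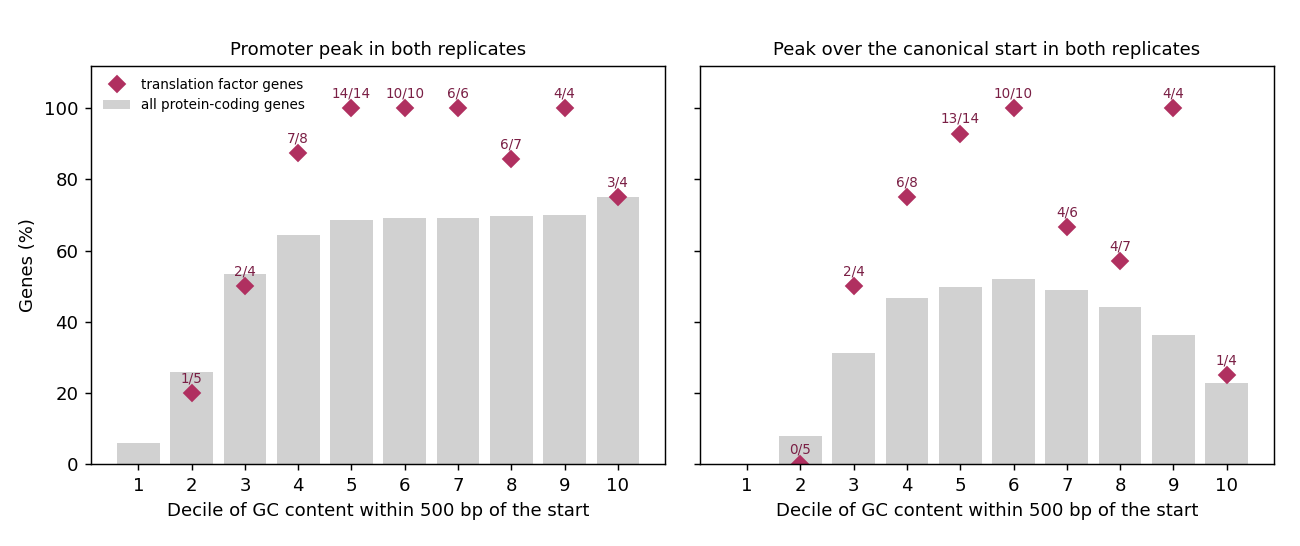
Percent of genes (vertical axis) with a promoter peak in both replicates (left) or with a peak over the canonical start in both replicates (right), by decile of GC content within 500 bp of the canonical start (horizontal axis). Grey bars are all protein-coding genes and diamonds are the translation factor genes, with called genes over genes in the decile. In the left panel all 14 genes of decile 5 and all 10 of decile 6 were called, while 1 of 5 was in decile 2.

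The peaks of the called genes ranked high within both lists. The strongest promoter peak had a median percentile of 92.3 in replicate 1 and 85.7 in replicate 2, where the medians over all called genes were 88.1 and 78.4. As folds, the medians were 7.19 and 6.12, beside 6.32 and 5.49 over all called genes. The strongest peak stood above the median of both lists for 44 genes, or 83.0% of those called, beside 70.7% of all called genes. The lowest folds were 2.68 and 2.75 in the 2 replicates and the highest 24.2 and 20.2.

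**Figure D2:**
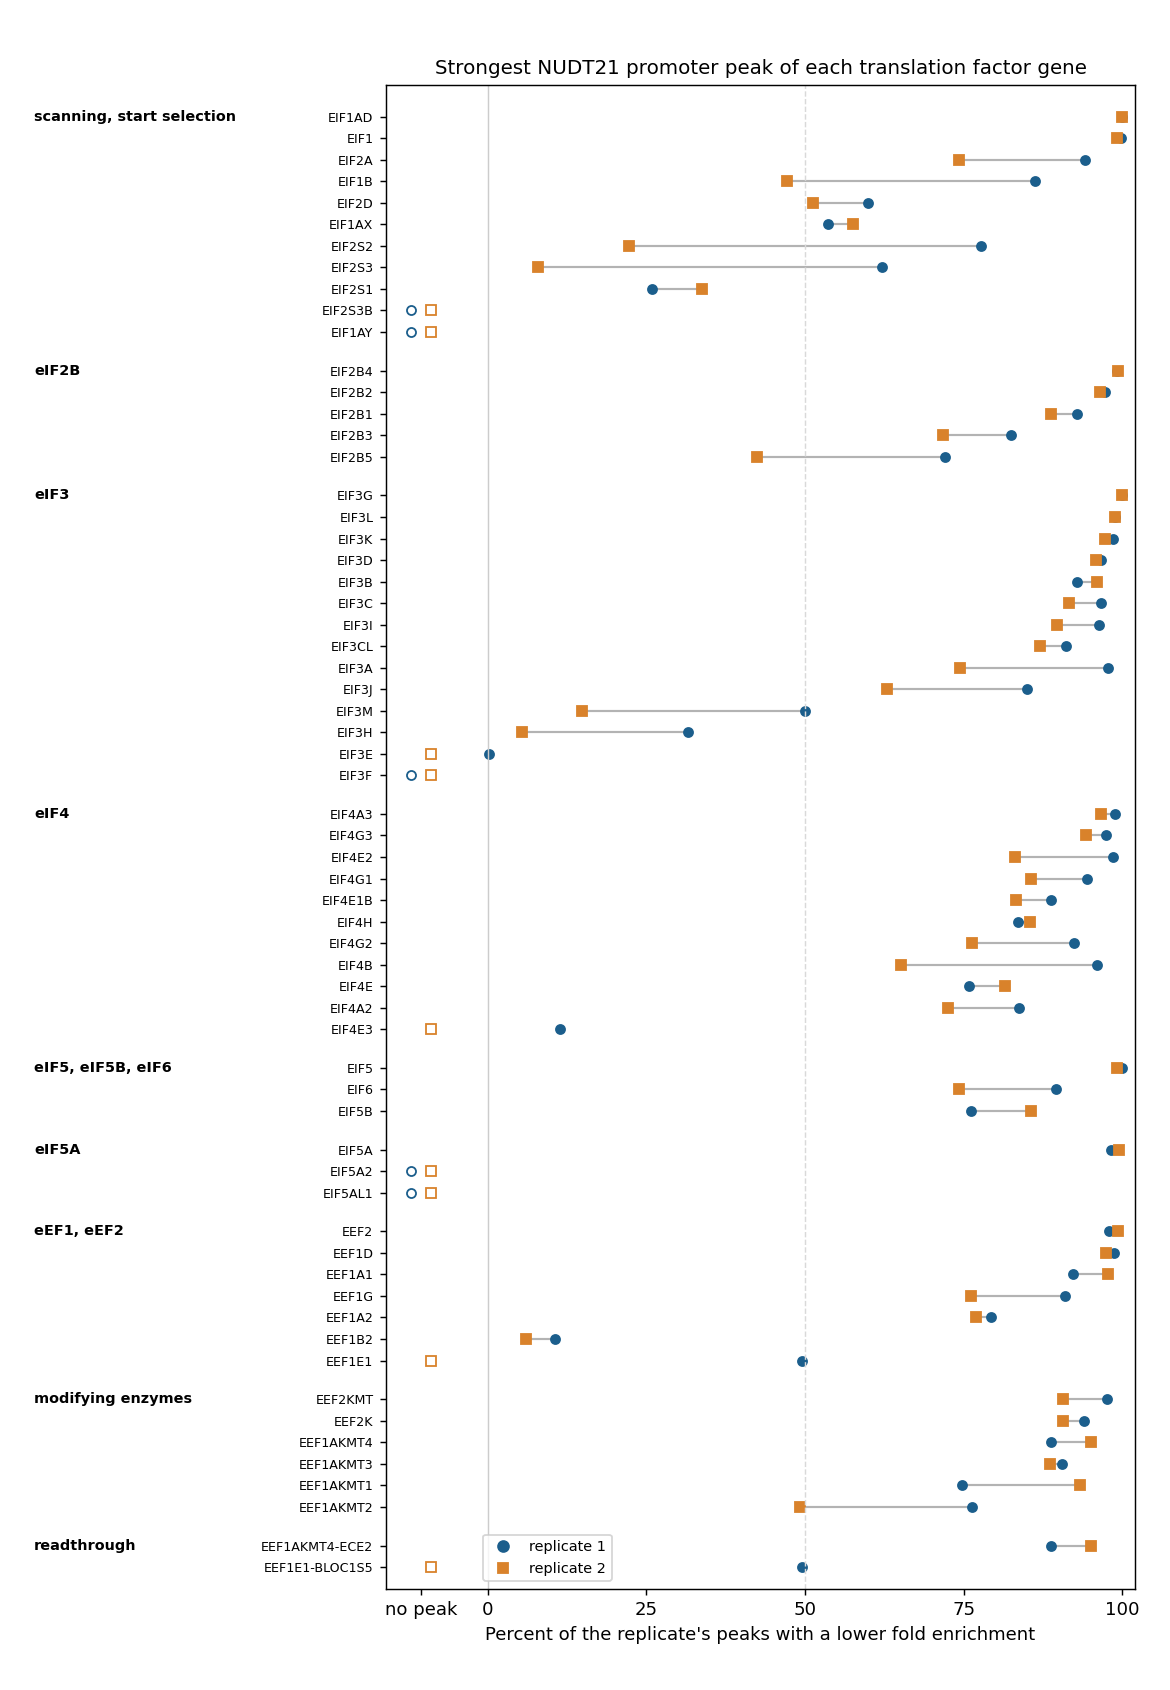
Percent of the peaks of the same replicate with a lower fold than the strongest promoter peak of each gene (horizontal axis), with genes grouped by role (vertical axis). Filled circles are replicate 1, filled squares replicate 2, open symbols mark a replicate without a promoter peak, and grey lines join the replicates of a gene. EIF3G and EIF1AD stand at 99.9 in both replicates, and the longest line is that of EIF2S2, with a difference of 55.5.

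The 11 genes whose names start with EIF1, EIF2A, EIF2D or EIF2S were grouped by name, and most encode factors of scanning and start codon selection or homologues of them.
In both replicates 9 of the 11 were called, with a median percentile of 77.8 in replicate 1 and 51.2 in replicate 2. EIF1AD, which encodes a protein with an eIF1A-like domain, had folds of 22.3 (18.7 to 26.3) and 20.2 (16.0 to 25.4) from 136 and 74 fragments. Its summits lay at -249 bp and -147 bp from the canonical start, in a peak that also lay near the start of another protein-coding gene. EIF1, the factor that guards against initiation at wrong codons, had folds of 20.5 (17.6 to 23.7) and 12.0 (9.28 to 15.3), with the summit at 214 bp into the gene in both replicates. EIF1 thus ranked at percentiles 99.8 and 99.2, although the counting intervals of its folds did not overlap. Its paralogue EIF1B, whose protein is 92.0% identical, had folds of 6.05 and 4.13, and these intervals of 4.62 to 7.79 and 2.71 to 6.07 lay below those of EIF1 in the same replicate.

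The 3 genes of eIF2 itself lay below the list median of 4.23 in replicate 2, while in replicate 1 EIF2S2 and EIF2S3 lay above the median of 3.95. EIF2S1, the alpha subunit that the stress kinases phosphorylate, had folds of 3.21 (2.52 to 4.03) and 3.71 (2.70 to 4.99), the lowest mean percentile of the called genes in its group. EIF2S2, the beta subunit, had 5.26 and 3.40, which placed it at percentile 77.8 in replicate 1 and 22.3 in replicate 2. EIF2S3, the gamma subunit that holds the initiator tRNA, had 4.41 and 2.89, at percentiles 62.2 and 7.94. EIF2S2 and EIF2S3 were the genes with the largest percentile differences between replicates, 55.5 and 54.3, but the counting intervals of their folds overlapped, at 4.0 to 6.80 and 2.28 to 4.89 for EIF2S2 and at 3.21 to 5.92 and 1.78 to 4.48 for EIF2S3. The retrogene EIF2S3B on chromosome 12, whose protein is 98.5% identical to that of EIF2S3, had no promoter peak, and the nearest peak lay 107.5 kb away in both replicates. EIF2D, a factor that can deliver tRNA without GTP, had folds of 4.33 at 46 bp in replicate 1 and 4.26 at 9349 bp in replicate 2, which are different peaks. The start peak of EIF2D in replicate 2 had 2.99, at percentile 10.2.

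The pair EIF1AX and EIF1AY encodes eIF1A from the X and the Y chromosome, with proteins that are 99.3% identical. EIF1AX had folds of 4.09 and 4.49 from 30 and 21 fragments, while EIF1AY had no promoter peak in either replicate. The Y chromosome held 84 peaks in replicate 1 and 29 in replicate 2. The promoters differ in base composition, with 62.7% GC around the start of EIF1AX and 50.8% around that of EIF1AY. The 200 bases before each start are shown because the proteins are nearly the same and the peaks are not, with GGGCGG or its complement in capitals (RefSeq, GRCh38.p14, chrX:20141839-20142038 on the minus strand and chrY:20575576-20575775 on the plus strand).
EIF1AX: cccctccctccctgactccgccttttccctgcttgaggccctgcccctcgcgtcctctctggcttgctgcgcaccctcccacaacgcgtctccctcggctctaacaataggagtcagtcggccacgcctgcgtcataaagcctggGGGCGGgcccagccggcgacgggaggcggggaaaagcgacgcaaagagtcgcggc
EIF1AY: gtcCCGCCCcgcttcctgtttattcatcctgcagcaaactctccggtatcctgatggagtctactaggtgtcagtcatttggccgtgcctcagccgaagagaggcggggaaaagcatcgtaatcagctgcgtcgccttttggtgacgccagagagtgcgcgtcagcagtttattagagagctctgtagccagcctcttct

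All 5 genes of eIF2B, the exchange factor that recharges eIF2 and that the integrated stress response inhibits, were called and had a peak over the canonical start in both replicates. Their median percentiles were 92.8 and 88.7. EIF2B4, the delta subunit, was the highest, with folds of 13.9 (11.6 to 16.5) and 12.3 (9.62 to 15.5) and summits at 7 bp and 13 bp from the start shown above. In both replicates this EIF2B4 peak also lay near the start of another protein-coding gene. EIF2B5, the catalytic epsilon subunit, was the lowest, at 4.89 and 3.99 and percentiles 72.0 and 42.5. These were different peaks, and its start peak in replicate 1 had 4.82. Each of the 5 ranked above EIF2S1 and EIF2S3, genes of its substrate, in both lists, while EIF2S2 ranked above EIF2B5 in replicate 1 and below all 5 in replicate 2.

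The eIF3 complex, the scaffold that binds the small ribosomal subunit, was encoded by 14 of the genes, of which 12 were called. The median percentile of the 12 was 96.5 in replicate 1 and 90.7 in replicate 2. EIF3G, an RNA-binding subunit, led with folds of 22.5 (18.8 to 26.7) and 19.2 (15 to 24.2), a mean of 20.8 ± 2.32 (SD, n = 2). Its peak was 11529 bp long in replicate 1 and 11278 bp in replicate 2, covered the canonical start and had its summit at 4764 bp in both, near the starts of other protein-coding genes. EIF3L reached 12.5 and 11.2, EIF3K 12.0 and 9.13, and EIF3D, a subunit that can itself bind the cap of selected mRNAs, 9.06 and 8.26. These 3 genes had percentiles between 95.9 and 98.9 in both replicates. The peaks of EIF3L and EIF3K also lay near the start of another protein-coding gene in both replicates.

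Other subunits of the same complex lay at the opposite end. EIF3M had folds of 3.95 (3.03 to 5.08) and 3.15 (2.19 to 4.41), with summits at -46 bp and -147 bp from the canonical start. EIF3H had 3.38 and 2.75, the lowest mean percentile of the called eIF3 genes, from a peak at -10562 bp and -10714 bp, near an upstream alternative start and the start of another gene. EIF3E had a peak in replicate 1 only, with a fold of 1.94 at percentile 0.29, and it lay at -194959 bp, at an alternative start that lies near the start of another gene. EIF3F, which had 11 annotated starts, had no promoter peak, and its nearest peaks lay 24.7 kb and 91.9 kb from the canonical start. EIF3E, EIF3F and EIF3H thus had no peak over their canonical starts in either replicate, and each has a TOP-like start, as do 10 of the 14 eIF3 genes. EIF3E and EIF3H lie in GC decile 2 and EIF3F in decile 4. EIF3C and EIF3CL, a segmental duplication with 99.9% identical proteins, shared all 20-base words of their start regions, so reads of one cannot be told from the other. The folds at these starts, 7.5 and 7.01 at EIF3C and 6.90 and 6.27 at EIF3CL, are therefore uncertain. The strongest EIF3C peak of replicate 1 was another one, with a fold of 9.07 at -22811 bp near an upstream alternative start.

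**Figure D3:**
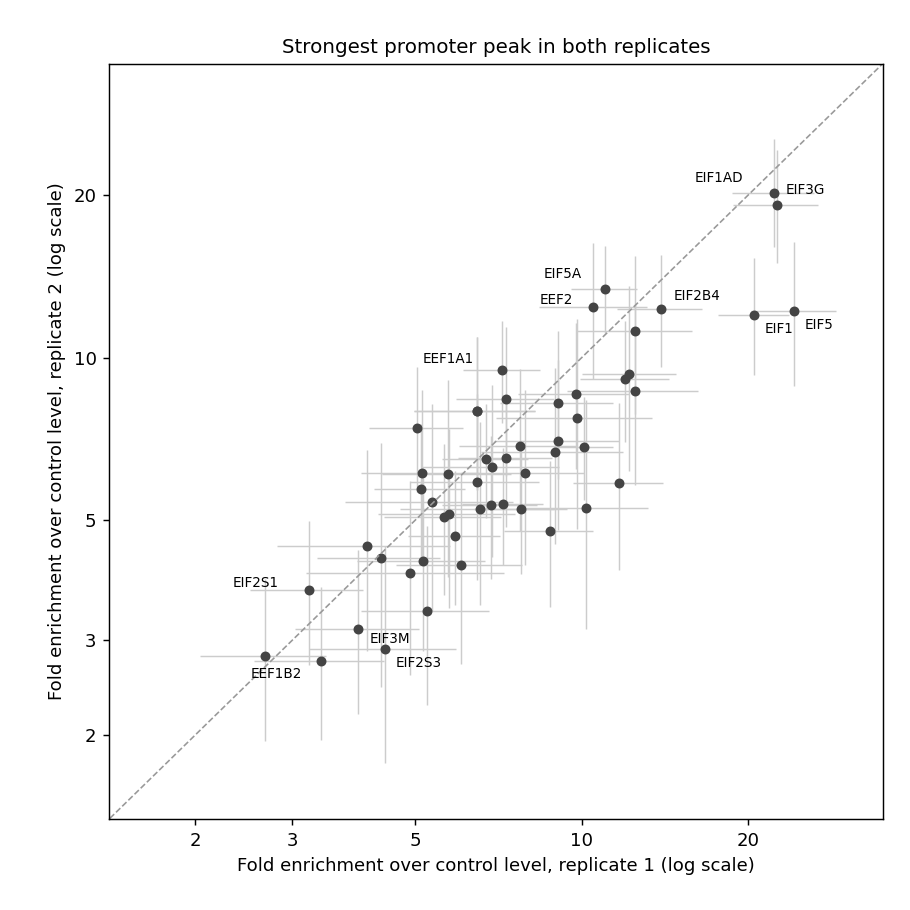
Fold enrichment of the strongest promoter peak in replicate 1 (horizontal axis) and replicate 2 (vertical axis), both on log scales, for the 53 called genes. Grey bars are exact Poisson 95% intervals on the fragments at the summit, and the dashed line marks equal folds. EIF1AD and EIF3G lie near the line at about the same height, EIF5 and EIF1 lie far to the right of it, and EEF1B2 lies at the lower left.

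The 11 eIF4 genes were grouped by name, and most encode factors that act at the mRNA cap or homologues of them. Of the 11, 10 were called, with median percentiles of 93.5 and 83.2. A peak covered the canonical start in both replicates at 5 of the 11, or 45.5%, beside 42.1% of genes of like GC content. The scaffold genes EIF4G1 and EIF4G3, with 49.8% identical proteins, had folds of 7.89 and 6.11 and of 9.81 and 7.73. The EIF4G3 summits lay at 84 bp and 132 bp, while those of EIF4G1, a gene with 38 annotated starts, lay at 5772 bp and 5727 bp. The peak over the canonical start of EIF4G1 had a fold of 5.90 in replicate 1. In replicate 2 no peak covered that start, and the nearest, 2.74 kb away, had 2.63 at percentile 3.18. Of the helicase genes EIF4A2 and EIF4A3, with 67.5% identical proteins, EIF4A3 had the higher folds, 12.5 and 8.67 against 5.76 and 5.13. EIF4A3, a core part of the exon junction complex, had those summits at 13445 bp and 13403 bp, beyond the gene and within 3000 bp of an alternative start. The peaks nearest its canonical start had folds of 11.1 and 6.68, and the replicate 2 peak stopped 58 bp short of that start. EIF4B, which stimulates the helicase, had 8.76 (7.23 to 10.5) in replicate 1 and 4.77 (3.46 to 6.44) in replicate 2, intervals that did not overlap.

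The eIF4E family binds the cap. EIF4E, the cap-binding subunit that is limiting in many tumours, had folds of 5.12 and 5.72 from 110 and 48 fragments. Its summits lay at 133 bp and 553 bp, and the replicate 2 peak stopped 77 bp short of the canonical start. EIF4E2, a homologue with 32.2% identity that acts mainly in repression, had 11.7 (9.64 to 14.0) and 5.87 (4.04 to 8.25), which did not overlap, in a peak near another gene. EIF4E1B, known from the germline, had 6.46 and 5.88, but from different peaks with summits at 16649 bp and 13133 bp from its canonical start, in replicate 1 near the start of another gene. EIF4E3, with 31.0% identity and the highest GC content of these 4 at 77.1%, had a peak in replicate 1 only, with a fold of 2.70 at percentile 11.4.

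EIF4E is a known MYC target, and its promoter shows the E-box CACGTG that was counted in these genes. The 200 bases before its start are given from RefSeq (GRCh38.p14, chr4:98929134-98929333, minus strand), with the E-box in capitals.
EIF4E: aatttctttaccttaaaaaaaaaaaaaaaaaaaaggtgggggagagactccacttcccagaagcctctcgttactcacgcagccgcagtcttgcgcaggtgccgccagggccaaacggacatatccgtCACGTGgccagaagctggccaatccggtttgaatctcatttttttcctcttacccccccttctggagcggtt

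Late initiation was represented by EIF5, EIF5B and EIF6, and all 3 were called with a peak over the canonical start in both replicates. EIF5, the GTPase-activating partner of eIF2, had folds of 24.2 (20.2 to 28.8) from 125 fragments and 12.2 (8.87 to 16.4) from 42. These intervals did not overlap, yet the gene ranked at percentiles 99.9 and 99.2. In both replicates this EIF5 peak also lay near the start of another protein-coding gene. EIF5B, the GTPase of subunit joining, was the lowest of the 3 by mean percentile, with 5.15 at 36 bp in replicate 1 and 6.12 from another peak at -1127 bp in replicate 2. Its start peak in replicate 2 had 4.49, at percentile 57.4. EIF6, which keeps the large subunit free until it is needed, had 6.55 at 510 bp and, from another peak, 5.25 at -1970 bp, beside 4.81 for its start peak in replicate 2.

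The 3 eIF5A genes were split by their peaks. EIF5A, which encodes the hypusine-containing factor of all cells, had folds of 11 (9.55 to 12.6) and 13.4 (11.1 to 16.1) from 202 and 117 fragments. Its summits lay at -180 bp and -316 bp from the canonical start. EIF5A2, a paralogue of restricted expression with 82.5% identical protein, had no promoter peak, and the nearest peaks lay 550.9 kb and 721.5 kb away. EIF5AL1, an EIF5A-like copy with 98.1% identity, had none either, with the nearest peaks at 66.0 kb and 66.3 kb. GC content was 68.4% around EIF5A, 67.0% around EIF5A2 and 50.7% around EIF5AL1.

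The promoter of EIF5A2 is shown because it holds 2 E-boxes and 5 copies of GGGCGG or its complement, all in capitals, without a peak within 3000 bp (RefSeq, GRCh38.p14, chr3:170908638-170908837, minus strand). The promoter of EIF5AL1 follows, in which none of the letters in capitals elsewhere were found (chr10:79512333-79512532, plus strand).
EIF5A2: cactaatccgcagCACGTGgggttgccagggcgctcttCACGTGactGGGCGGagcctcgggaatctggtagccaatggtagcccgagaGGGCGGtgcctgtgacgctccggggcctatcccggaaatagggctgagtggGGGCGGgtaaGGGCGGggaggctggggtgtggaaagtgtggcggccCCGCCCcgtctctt
EIF5AL1: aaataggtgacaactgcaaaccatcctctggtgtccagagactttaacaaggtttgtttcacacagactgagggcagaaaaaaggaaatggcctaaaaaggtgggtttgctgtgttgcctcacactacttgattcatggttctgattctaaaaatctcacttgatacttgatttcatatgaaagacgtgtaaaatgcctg

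Of the 7 genes grouped by name under elongation, among them EEF1E1, 6 were called, with median percentiles of 91.7 and 87.2. EEF2, the translocase, had folds of 10.5 (8.38 to 13.1) and 12.4 (9.15 to 16.3) from 79 and 47 fragments. Its peak covered the canonical start in both replicates but ran 11502 bp and 11367 bp, and its summits lay at 5833 bp and 8485 bp into the gene. EEF1A1, the main carrier of aminoacyl-tRNA, had 7.19 (6.11 to 8.41) and 9.48 (7.57 to 11.7), with summits at -321 bp and -506 bp. Its paralogue EEF1A2, which replaces it in neurons and muscle and has a 92.4% identical protein, had 5.37 and 5.41 from 32 and 20 fragments, with summits at -1745 bp and -1713 bp. Both genes therefore had peaks with summits upstream of the canonical start. The EEF1A1 peaks covered that start in both replicates, and the EEF1A2 peak did in replicate 1 only.

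The genes of the eEF1B exchange complex ranged from the top to the bottom of the lists. EEF1D, the delta subunit, had folds of 12.2 at -96 bp in replicate 1 and 9.34 at 4237 bp in replicate 2, where the peak over the start itself had 5.32 at percentile 75.7. EEF1G, the gamma subunit, had 6.85 and 5.34. EEF1B2, the alpha subunit, had 2.68 (2.04 to 3.45) and 2.80 (1.95 to 3.90), at percentiles 10.6 and 6.0, in a peak it shared with another gene. EEF1B2 has the longest pyrimidine tract of the starts counted here, 16 bases. Its summits had 57 and 33 fragments and control levels of 19.0 and 11.1, and no cause of its low fold was tested. EEF1E1, an auxiliary protein of the multi-tRNA-synthetase complex, had a peak in replicate 1 only, with a fold of 3.95 from 42 fragments. That peak was the same one that counted for the readthrough gene EEF1E1-BLOC1S5.

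The promoter of EEF2 is shown as the elongation gene with the highest mean percentile, with TATAAA and GGGCGG or its complement in capitals (RefSeq, GRCh38.p14, chr19:3985464-3985663, minus strand). It continues into the TOP-like start of the gene given above.
EEF2: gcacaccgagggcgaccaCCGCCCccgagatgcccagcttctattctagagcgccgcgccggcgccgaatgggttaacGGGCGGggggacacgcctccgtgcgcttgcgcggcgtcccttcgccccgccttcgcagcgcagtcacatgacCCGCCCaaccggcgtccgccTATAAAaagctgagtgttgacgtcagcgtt

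All 6 genes of enzymes that modify elongation factors were called, with median percentiles of 89.6 and 90.7. EEF2KMT, the eEF2 lysine methyltransferase, had folds of 10.1 (8.88 to 11.4) and 6.84 (5.45 to 8.47) from 261 and 82 fragments, the most fragments of any called gene in replicate 1. EEF1AKMT2, an eEF1A lysine methyltransferase, was the lowest, at 5.17 and 4.21. EEF2K, the kinase that halts elongation, had 7.73 and 6.85. EEF1AKMT4 and its readthrough gene EEF1AKMT4-ECE2 shared 1 peak with folds of 6.46 and 7.96 and are not independent.

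Peak positions were then compared between replicates. All 53 called genes had promoter peaks of both replicates that overlapped by at least 1 bp, and for 47 genes summits of both replicates lay within 200 bp of each other. The strongest peaks themselves overlapped for 44, while for 9 the strongest peak was a different one in each replicate, namely EIF2B5, EIF2D, EIF3A, EIF3B, EIF3C, EIF4E1B, EIF4H, EIF5B and EIF6. Folds correlated across the 53 genes with a Spearman's rho of 0.81 and a Pearson's r of 0.86. This is a description over genes that share 2 libraries, in which those 9 compare different peaks. Whether both lists used the same control is not known. A control common to both would enter both folds and so add to their likeness, which was not tested. The counting intervals of the fold overlapped between replicates for 48 genes and did not for 5, which were EIF1, EIF5, EIF4B, EIF4E2 and EEF2KMT, each higher in replicate 1. The median absolute difference in percentile was 5.74 over these genes and 8.27 over all called genes. The overlaps, correlations and interval counts above were not determined over all called genes. They therefore do not show whether the replicates were more alike at the factor genes than elsewhere.

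The strongest summits lay within 500 bp of the canonical start in both replicates for 30 genes, or 56.6% of those called, against 39.1% of all called genes. For 7 genes they lay over 1000 bp away in both, namely EIF3G, EIF3H, EIF4A3, EIF4G1, EIF4E1B, EEF2 and EEF1A2. Among peaks that covered the canonical start, the median summit was at -46 bp over 53 genes in replicate 1 and at -119 bp over 45 genes in replicate 2. Of those summits, 27 of 53 and 27 of 45 were upstream of the start. The strongest peak also lay near a start of another protein-coding gene in both replicates for 21 genes, or 39.6% of those called, against 32.0% of all called genes, and such peaks cannot be assigned to 1 of the genes. The 21 were EIF1AD, EIF1B, EIF2A, EIF2S1, EIF2B1, EIF2B4, EIF3G, EIF3H, EIF3I, EIF3K, EIF3L, EIF4E2, EIF5, EIF5B, EEF1B2, EEF1D, EEF1G, EEF1AKMT2, EEF1AKMT3, EEF1AKMT4 and EEF1AKMT4-ECE2.

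**Figure D4:**
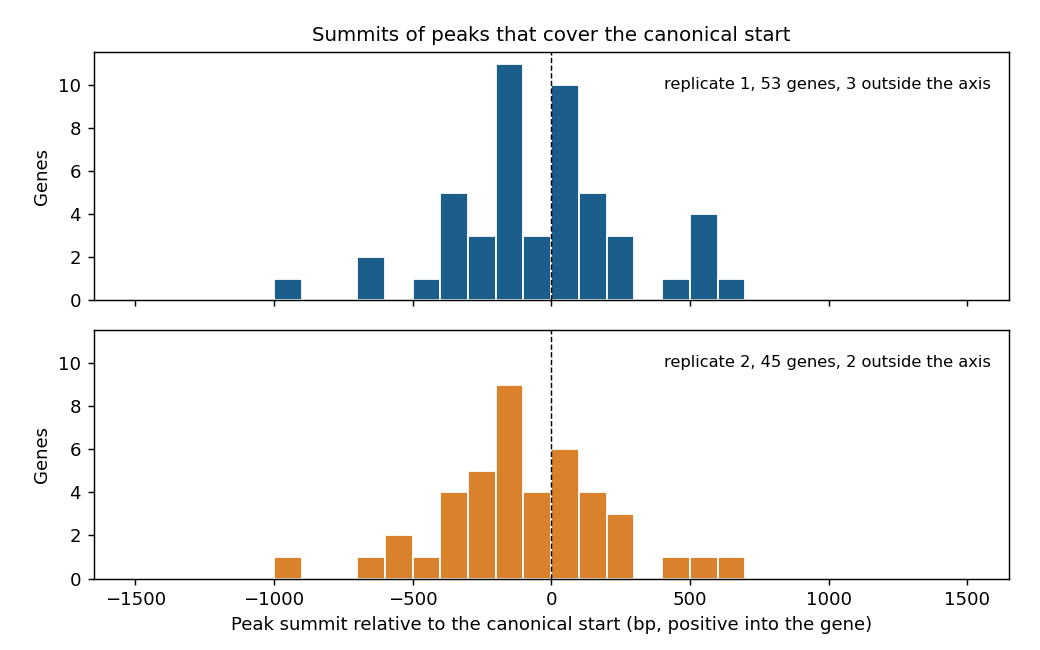
Number of translation factor genes (vertical axis) by the distance in bp from the canonical start to the summit of the strongest peak that covers it (horizontal axis, positive into the gene, bins of 100 bp), for replicate 1 above and replicate 2 below. The summits cluster on both sides of the start, 35 of 53 within 300 bp in replicate 1 and 31 of 45 in replicate 2. Outside the axis lie 3 genes in replicate 1 and 2 genes in replicate 2.

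TOP-like starts and peaks were compared next. Of the 21 genes with a TOP-like start 18 were called (85.7%), and of the 41 without one 35 were (85.4%). Over all protein-coding genes the shares were 64.3% with and 56.7% without such a start. The median percentiles of the called TOP-like genes were 93.3 and 75.7, and those of the others 91.0 and 88.6, so the order of the sets turned between replicates. TOP-like starts were found at 10 of 14 eIF3 genes and 5 of 7 elongation genes, and at 2 of 11 eIF4 genes and none of the eIF2B genes.

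Short motifs were counted on both strands in RefSeq promoters from 250 bases before to 50 after the start, which were available for 50 of the 62 genes. For 41 of the 50, the RefSeq start was the canonical start. The E-box CACGTG was in 13 promoters (26.0%), against 8.89% of 15345 protein-coding promoters and 9.87% after weighting to the GC content of these genes. Of the 13 genes, 11 were called, much like the 53 of 62 factor genes (85.5%) called with or without an E-box. Among the 11 were EIF4E, EIF4G1, EIF4A3, EIF4B and EIF1B, and those not called were EIF3F and EIF5A2. The 13 count EEF1AKMT4 and its readthrough gene EEF1AKMT4-ECE2 separately, although both have the same promoter window and the same peak. The SP/KLF-type GGGCGG was in 74.0% against 59.2%, or 64.3% after weighting, and the ETS-type CCGGAAG in 24.0% against 14.4%, or 17.5% after weighting. CCAAT was in 40.0% against a weighted 37.7%, the NRF1-type GCGCATGC in 4.0% against 5.30%, the YY1-type AAGATGGCG in 6.0% against 3.27% and TATAAA in 4.0% against 6.82%. TCTCGCGA was in none of the 50, against a weighted 2.24%. TGTA, the DNA form of the RNA word that NUDT21 binds, was in 44% against a weighted 49.8%. These are matches of letters, not measured binding sites.

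Gene ends were read as well, since polyadenylation sites are where NUDT21 is known to act. A peak outside promoters had its summit within 1000 bp of the gene end in both replicates at 6 genes, or 9.68%, against 3.74% of all genes. EIF5 had the highest in replicate 2, with folds of 7.23 and 8.98 and summits at 467 bp and 463 bp past the end. EIF3K had 8.19 and 3.67, EEF2KMT 6.53 and 5.18, EEF1A2 5.14 and 2.99, EIF3CL 4.13 and 4.43, and EEF1G 4.07 and 3.93. The coding sequences of EIF3CL and EIF3C are 99.9% identical. Whether reads at this end of EIF3CL can be told from those of EIF3C was not determined. At each of the 6 genes the gene-end fold lay below the strongest promoter fold of the same replicate. Peaks near any start were left out of this count. At EIF3G and EIF4A3 the strongest promoter peak itself had its summit near the gene end, at -121 bp from it in both replicates at EIF3G and at 686 bp and 644 bp past it at EIF4A3. Such summits in both replicates were found at these 2 of the 53 called genes (3.77%), against 2.21% of all called genes.

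Other genes of the translation apparatus were called at shares of 75.8% to 90%, beside 57.0% of all genes and 59.2% to 66.5% of genes of like GC content. Of 33 further translation genes, among them the eIF2 kinases, eIF4E-binding proteins, poly(A)-binding proteins, release factors and the enzymes that make hypusine and diphthamide, 25 were called (75.8%, Wilson 59.0 to 87.2), beside 66.5% of genes of like GC content. Of 78 cytosolic ribosomal protein genes 67 were called (85.9%), with median percentiles of 95.6 and 93.3. Of 20 cytosolic aminoacyl-tRNA synthetase genes 18 were called (90%), with median percentiles of 79.1 and 66.7. The factor genes, at 92.3 and 85.7, lay between the ribosomal protein and the synthetase genes in both replicates, and these differences were not tested.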

How the data were processed

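CUT&Tag for NUDT21 was done in 2 independent biological replicates of J.gamma1 cells. Per the study's methods and the submitters' processing notes, fastp was used for the raw reads, Bowtie2 2.2.5 for alignment to hg38, Picard for removal of duplicates and MACS3 3.0.1 for peaks, and the authors called peaks in each replicate separately. No control library is described in the sources used here, and the annotation release used for the deposited peaks is not given in them. Each deposited list gives the fold enrichment at the summit as a ratio, the −log10 p and the −log10 q. The deposited score was not used. The deposited files hold no read totals, so the absolute depth is unknown.

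The number of fragments and the control level at each summit of the 62 genes were solved from the fold and −log10 p that the authors deposited, as MACS sets the fold to the pileup plus 1 over the control level plus 1 and p to a Poisson tail. The pileup had a step of 0.921 in replicate 1 and 1.00 in replicate 2. MACS scales a pileup when a control library of another depth is used, so the folds may be relative to a control that the sources used here do not describe. Solutions met the deposited −log10 p within 0.00042. The control level was taken as fixed in the 95% intervals. Tested on simulated data, the recovery and the distance rule returned the planted values in nearly all cases.

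Transcript starts, gene ends and canonical starts came from GENCODE 44. GC content was taken within 500 bp of the canonical start and cut into 10 bins over all protein-coding genes, and shares over all genes were weighted to the bins of the factor genes. RefSeq promoters matched 50 of the 62 genes by symbol. Protein identity came from global alignment of coding sequences translated from GENCODE 44 and hg38. Scripts ran in Python 3.11.15 with pandas 2.3.3, scipy 1.17.1, pysam 0.24.0 and Biopython 1.88. There being 1 group, no test between conditions was made. 1 further gene with these prefixes is not reported here.

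Genes were named by rule: those without a promoter peak in 1 or both replicates, the highest and lowest called gene of each role by mean percentile, the members of paralogue pairs, the 5 highest and the 5 with the largest percentile difference, and those with gene-end peaks or with summits over 1000 bp from the canonical start in both replicates. Other genes were named after their values were seen or for their start sequence. The genes, lists and alternatives were chosen with earlier results of these data known.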

Additional observations from a re-analysis of the deposited data

How the results depend on the processing

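The 53 genes called depended little on how a promoter was defined: 53 were called within 1000 bp or by peak summit, 52 from the canonical start alone and 51 with a −log10 q of at least 5. Keeping 10000 peaks per list, those with the largest −log10 p, gave 35 of the factor genes, 24.6% of all genes and 27.9% after GC weighting, with 10 TOP-like genes, 6 eIF4 genes, 3 scanning genes, 1 gene with a gene-end peak and a median percentile of 93.4 in replicate 2. Keeping only peaks near 1 protein-coding gene gave 36 factor genes, 42.5% of all genes and 47.2% after weighting, with 3 elongation genes, 3 modifying enzymes, 1 of EIF5, EIF5B and EIF6, and 0 readthrough genes. A gene-end distance of 500 bp gave 3 genes.

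With 1 replicate required instead of both, the factor genes numbered 53 to 57, all genes 57.9% to 69.8%, the GC-weighted share 65.2% to 77.8%, genes with a covered canonical start 45 to 53, gene-end genes 6 to 9 and readthrough genes 1 to 2. In all, 114 of 132 alternative values stayed within the spread between replicates or within 1.5 times the count, and 18 did not. Both of the first settings keep fewer peaks by construction, and no other cause was tested. No paired analysis was possible because the 2 replicates form a single group. Depth limits the genes without a peak: with a median of 37.0 fragments at called summits in replicate 2, an absent peak is a peak not detected at this depth.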

Other observations

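Several of the strongest peaks of these genes were very long. Promoter peaks over 10000 bp were found at EIF3G, EEF2 and EEF1D in replicate 1 and at EIF3G and EEF2 in replicate 2. Peaks of that length made up 0.465% of all peaks in replicate 1 and 0.24% in replicate 2, in promoters or elsewhere. The share of all called genes with such a promoter peak was not determined, so these values do not show whether long peaks are more frequent at the factor genes. The summit of EIF3G lay at 4764 bp from the canonical start in both replicates, at -121 bp from the gene end, and those of EEF2 lay at 5833 bp and 8485 bp, which in replicate 2 was -922 bp from the gene end. These peaks covered the start as well.

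Within complexes whose subunits are needed in fixed proportion, the strongest promoter peaks were uneven. Among called eIF3 genes the folds in replicate 1 ran from 22.5 at EIF3G to 3.38 at EIF3H. EIF3E, which had no promoter peak in replicate 2, had 1.94. In the eEF1B complex they ran from 12.2 at EEF1D to 2.68 at EEF1B2. The places are unlike, with summits at 4764 bp for EIF3G, -10562 bp for EIF3H and -194959 bp for EIF3E from the canonical start. All 5 of these peaks also lay near the start of another protein-coding gene, so the folds do not compare the subunits' own starts. No peak covered the canonical start in either replicate at 8 genes, which were EIF3E, EIF3F, EIF3H, EIF4E3, EIF5A2, EIF5AL1, EIF2S3B and EIF1AY. The first 3 are core eIF3 subunits with TOP-like starts, while EIF5AL1 and EIF2S3B are copies of other genes.

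Genes differed in their number of annotated starts. Of the 23 factor genes with 10 or more starts 21 were called (91.3%), beside 72.2% of all genes with that many. Of the 39 with fewer starts 32 were (82.1%), beside 51.7% of all such genes.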
